A study of Rattus norvegicus with 8 samples.

Results

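Tachykinins and other neuropeptides of the gut were followed in the colon of rats given cocoa, cocoa fiber or inulin. The genes were Tac1, Tac4, Tacr1, Tacr2, Pdyn, Npw, Trpv1, Vip and Nmu, chosen by name with earlier results of these data known. Every probe whose accession maps to 1 of these genes was taken. All 9 of them, on 11 probes, were among the 19899 genes that could be tested. The animals were female Wistar rats, 6 weeks old according to the labels, and the tissue was a piece from the middle of the colon, taken whole, with no sorting of cells. The REF rats ate the standard reference diet. C10 rats ate a diet with cocoa, which brought cocoa polyphenols together with soluble and insoluble fiber. CF rats received the same cocoa fiber with very little polyphenol, and I rats received inulin in the amount of soluble fiber of the C10 diet. There were 4 rats of each diet, 16 in all, and each rat was read once, in Cy3 or in Cy5, on 1 of 8 Agilent arrays that each carried 2 rats. Each diet had 2 rats in either dye. The arrays of the C10 rats and those of the I rats formed different sets on 1 slide, so a direct contrast of C10 with I runs across both sets.

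Tachykinins are short peptides cut from larger precursors in nerve cells and in some immune cells, and they act on a small family of G protein-coupled receptors. In the gut wall, enteric and sensory neurons release them, muscle contracts in response, and epithelium and immune cells also carry receptors. Vasoactive intestinal peptide has the opposite action on muscle, which it relaxes, and it drives secretion. Because the sample is a whole piece of colon, fewer cells of a type and less RNA per cell cannot be told apart in any value given here.

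Members of the group were compared on the log2 scale of the normalized signal, where 1 unit is a 2-fold difference. A fold change is the estimate from a limma model with diet, dye and the pairing of rats on arrays, so that it can differ from the plain difference of the group means. To be called, a gene needed a limma p below 0.05 after adjustment over the 19899 genes and a difference of at least 2-fold. Single genes were also compared by a two-sided exact permutation test over rats, for which 0.0286 is the smallest p that 4 against 4 rats allow. Group values are mean ± SD of 4 rats. The comparisons with REF all use the same 4 REF rats, and the per-rat values of a diet are given in the order of rats 1 to 4.

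The stretches of genome just before the gene starts of 4 of these genes are shown. Tac4 and Npw were taken because they had nearly the same order across the 16 rats. Tac1 and Vip were taken because both were lowest in the same rat, as were Tacr2 and Nmu, whose stretches are not shown. Each stretch is the 250 bases before the RefSeq gene start in the rat assembly GRCr8, read 5′ to 3′ on the strand of the gene. That of Tac4 is chr10:80704390-80704639 (plus strand), that of Npw chr10:14186128-14186377 (minus strand), that of Tac1 chr4:36645333-36645582 (plus strand) and that of Vip chr1:44470230-44470479 (plus strand). Capitals mark every match to the cAMP response element half-site (TGACG, or CGTCA on the other strand) and to the CCAAT box (CCAAT or ATTGG).
Tac4: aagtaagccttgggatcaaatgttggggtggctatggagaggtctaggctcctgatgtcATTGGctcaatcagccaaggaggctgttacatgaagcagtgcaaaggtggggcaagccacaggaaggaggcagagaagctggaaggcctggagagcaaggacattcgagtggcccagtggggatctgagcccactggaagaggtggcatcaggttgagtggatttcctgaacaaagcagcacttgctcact
Npw: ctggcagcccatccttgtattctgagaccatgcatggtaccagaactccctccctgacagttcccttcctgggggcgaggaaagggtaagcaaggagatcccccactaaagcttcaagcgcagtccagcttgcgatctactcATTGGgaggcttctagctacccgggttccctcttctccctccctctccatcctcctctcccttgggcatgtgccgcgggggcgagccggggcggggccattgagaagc
Tac1: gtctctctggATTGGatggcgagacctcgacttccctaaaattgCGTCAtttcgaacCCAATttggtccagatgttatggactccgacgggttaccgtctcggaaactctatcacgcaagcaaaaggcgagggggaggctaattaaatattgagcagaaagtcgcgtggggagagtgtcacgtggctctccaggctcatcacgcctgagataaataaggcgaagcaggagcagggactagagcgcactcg
Vip: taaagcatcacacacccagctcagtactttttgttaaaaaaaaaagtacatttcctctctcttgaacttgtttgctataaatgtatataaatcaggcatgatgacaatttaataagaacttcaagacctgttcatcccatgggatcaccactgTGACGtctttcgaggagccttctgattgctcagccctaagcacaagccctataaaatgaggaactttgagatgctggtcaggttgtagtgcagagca
The half-site was found in the windows of Tac1 (first base at position -206), Vip (-97), Tacr1 (-69) and Nmu (-103), that is in 4 of the 9 genes, and 19 % of the 27457 promoters searched hold it. No match lay in the windows of Tac4, Npw, Tacr2, Pdyn or Trpv1. A CCAAT box was found in 6 of the 9 windows, Tac4 (-191) and Npw (-108) among them, and in 34.3 % of all promoters. The TATA box (TATAAA) was found in 3 of the 9 windows and in 13.1 % of all promoters. For the E-box (CANNTG) it was 8 of 9 and 65.2 %. These are matches of letters only and say nothing about binding.

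In the C10 group, 0 of the 9 genes were called against REF, where 0.196 % of all genes tested were called. At an unadjusted p below 0.05 there were 6 of 9, namely Tac4, Npw, Tac1, Tacr2, Trpv1 and Pdyn, beside 17.2 % of all genes. Differences of at least 2-fold were found for Tac4, Npw and Tac1, beside 0.839 % of all genes. This count depended on the background correction: with a normexp offset of 0 Pdyn (1.43, adjusted p 0.206) and Trpv1 (1.28, adjusted p 0.199) also passed 2-fold, as they did with the signals processed by the scanner software (1.73, adjusted p 0.294, and 1.53, adjusted p 0.214). The estimates were below 0 for 6 genes and above 0 for 3, with a median of -0.48, while the median over all genes was 0.01. The study itself had reported Tac4, Npw, Pdyn and Trpv1 as changed at least 2-fold in C10 on these arrays, by rank product. It also measured Tac4 by real-time PCR and reports a similar pattern there. In C10, however, it names only Mcpt2 and Fcer1a as significantly lower by PCR. Since the genes were chosen with such results known, these counts and this median describe the set and are no test of it. Against REF, CF had 0 of 9 called and 3 of 9 at an unadjusted p below 0.05 (Tac4, Npw and Tacr1, beside 6.34 % of all genes), and I had 0 of 9 in both counts (5.72 % of all genes at the unadjusted limit). Neither of these diets had any called gene on the whole array (0 %). Rank product was run with 100 permutations on the same signals. A gene was called at a share of false predictions below 0.05 and a difference of at least 2-fold. This test had no term for dye or for rats that shared an array. It called Tac4, Npw and Tac1 in C10, beside 0.683 % of all genes, and Tac4 in CF and in I, beside 0.246 % and 0.151 %. At differences below 2-fold, the limit on false predictions was also passed by Pdyn (0.0176) and Trpv1 (0.0427) in C10 and by Npw (0.0271) in CF; at any fold, 1.45 % of all genes passed it in C10 and 0.658 % in CF.

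**Figure D1:**
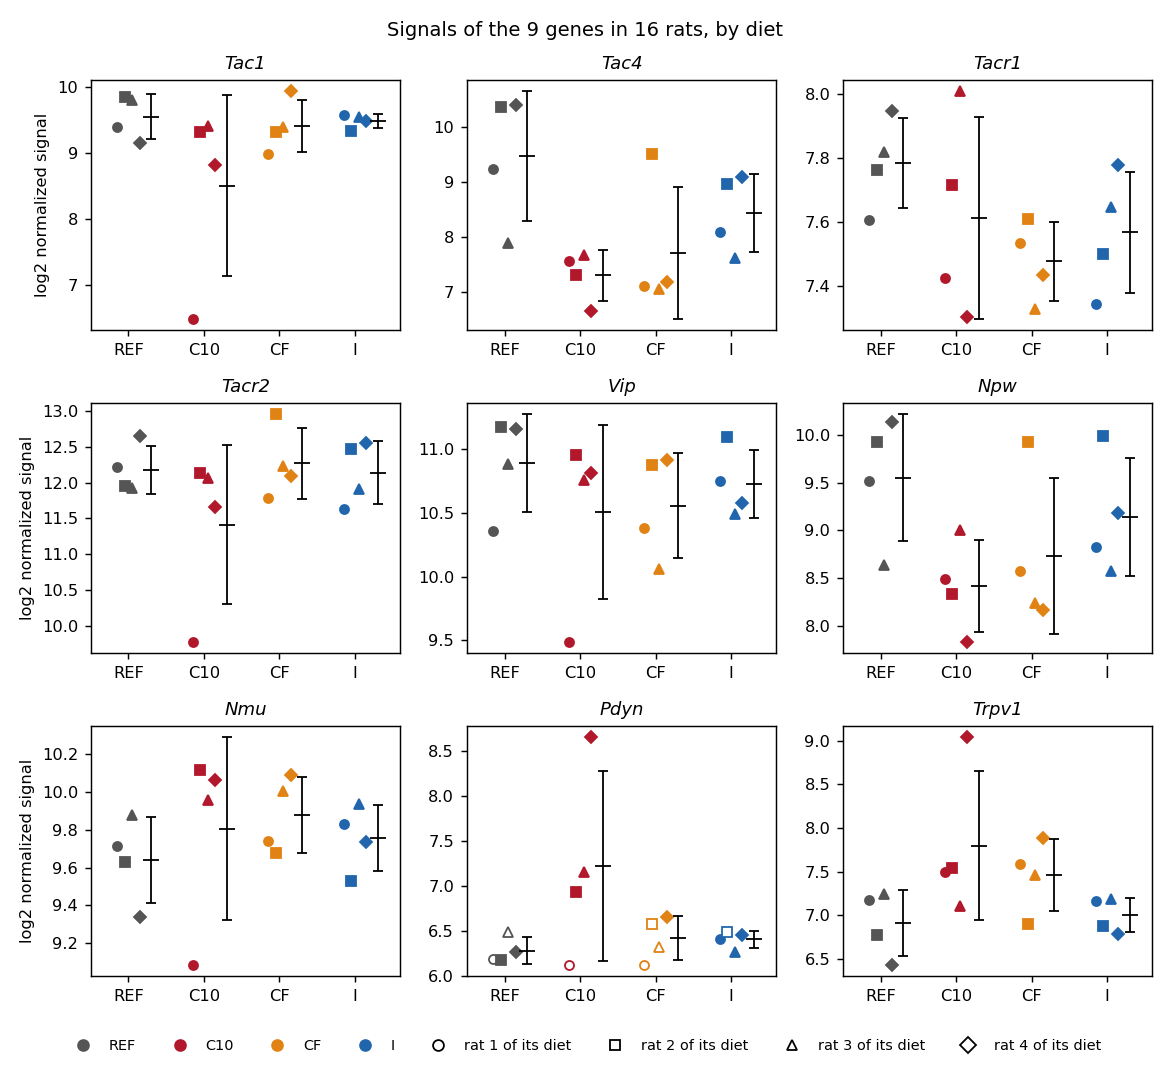
Log2 normalized signal of the 9 genes in each of the 16 rats, by diet, 1 point per rat, with a panel for each gene on its own scale. The bar at the right of each diet gives the mean and SD of 4 rats, and open points are signals not well above background. For Tac4 the 4 C10 rats sit between 6.64 and 7.68 and the 4 REF rats between 7.89 and 10.41, while C10 rat 1 lies far below the other rats for Tac1 and Tacr2 and is also the lowest for Vip and Nmu.

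Tac4, the precursor of hemokinin, a tachykinin known from immune cells as well as nerve cells, had the largest difference of the 9 genes in C10 and in CF. Its log2 signal was 9.24, 10.36, 7.89 and 10.41 in the REF rats and 7.56, 7.31, 7.68 and 6.64 in the C10 rats. All 4 C10 rats lay below all 4 REF rats; non-overlapping groups with C10 lower were found for 2.04 % of all genes. The means were 9.47 ± 1.19 in REF and 7.30 ± 0.46 in C10, and the fitted log2 fold change was -2.36 (SE 0.55, 95 % interval -3.54 to -1.18), which corresponds to a signal 5.13-fold lower. It had an adjusted p of 0.0572 in limma and an exact permutation p of 0.0286. On the 2 arrays that carried a C10 rat next to a REF rat, Tac4 was lower in the C10 rat by 1.67 and 3.05.

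The signal of Tac4 was 7.11, 9.52, 7.04 and 7.17 in the CF rats and 8.09, 8.96, 7.61 and 9.10 in the I rats. In CF, 3 rats were as low as the C10 rats and CF rat 2 was as high as REF rats, and the I rats overlapped with both the C10 and the REF group. Against REF the log2 fold change was -1.74 in CF (SE 0.60, adjusted p 0.732) and -0.83 in I (SE 0.55, adjusted p 0.931). C10 differed from I by -1.53 (SE 0.60, adjusted p 0.321) and from CF by -0.62 (SE 0.55, adjusted p 0.678, 95 % interval -1.80 to 0.57), so that neither difference passed. Whether Tac4 was called in C10 depended on single rats. Without REF rat 3 the fold change was -2.76 (adjusted p 0.0209) and without CF rat 2, which shared an array with C10 rat 4, it was -2.21 (adjusted p 0.02), and Tac4 was called in both fits. Over all fits that left out 1 rat, the value in C10 ran from -2.77 to -1.9 and its adjusted p from 0.02 to 0.285. Without CF rat 2 the value in CF against REF became -2.47 (adjusted p 0.163), so that the order of C10 and CF turned round.

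Npw, which encodes neuropeptide W, a ligand of the NPBW receptors, gave a similar order of diets. The REF rats had signals of 9.52, 9.93, 8.63 and 10.14, and the C10 rats 8.49, 8.33, 9.001 and 7.83. The groups overlapped only through REF rat 3 and C10 rat 3. The means of 9.55 ± 0.67 and 8.41 ± 0.48 gave a log2 fold change of -1.34 (SE 0.40, adjusted p 0.111) and an exact permutation p of 0.0571. CF rats had 8.58, 9.93, 8.24 and 8.17 and I rats 8.83, 9.995, 8.57 and 9.18, so that CF rat 2 again stood among the REF rats. In CF the log2 fold change was -0.94 (SE 0.43, adjusted p 0.783) and in I it was -0.32 (SE 0.40, adjusted p 0.959). Without CF rat 2 the values were -1.45 in CF (adjusted p 0.175) and -1.25 in C10 (adjusted p 0.0564), again in the other order. Leaving out REF rat 3 gave -1.61 in C10 (adjusted p 0.0418), and Npw was then called. Over all fits that left out 1 rat, the value in C10 ran from -1.63 to -1.1 and its adjusted p from 0.0418 to 0.41.

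Tac1, the precursor of substance P and neurokinin A and the main tachykinin gene of enteric neurons, was set apart by 1 rat. Its signal was 9.39, 9.84, 9.80 and 9.14 in the REF rats and 6.48, 9.32, 9.40 and 8.81 in the C10 rats. C10 rats 2, 3 and 4 were at or near the range of REF, and C10 rat 1 lay more than 4-fold below every other rat. Signals in CF (8.98, 9.32, 9.38 and 9.93) and in I (9.57, 9.32, 9.54 and 9.48) overlapped with REF. The log2 fold change in C10 was -1.13 (SE 0.41, adjusted p 0.187), with an exact permutation p of 0.143, and -0.33 (SE 0.22, adjusted p 0.525) without C10 rat 1. A second, dimmer probe for another transcript of Tac1, not well above background in C10 rat 1, gave -0.46 (SE 0.20, adjusted p 0.262). In CF the value was -0.38 (SE 0.44, adjusted p 0.934) and in I -0.22 (SE 0.41, adjusted p 0.964).

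The receptors differed from each other in their spread. Tacr2, the neurokinin A receptor of colonic smooth muscle, had signals of 12.21, 11.95, 11.92 and 12.64 in the REF rats and 9.78, 12.14, 12.07 and 11.66 in the C10 rats. As with Tac1, the C10 mean of 11.41 ± 1.11 rested on rat 1, and the log2 fold change of -0.85 (SE 0.31, adjusted p 0.19) became -0.30 (SE 0.21, adjusted p 0.555) without that rat. The CF rats (11.79 to 12.96) and the I rats (11.63 to 12.55) overlapped with REF, with log2 fold changes of -0.07 (SE 0.34, adjusted p 0.988) and -0.12 (SE 0.31, adjusted p 0.978). Tacr1, the substance P receptor, had the narrowest range of the 9 genes over the 16 rats, from 7.30 to 8.01. Its means were 7.78 ± 0.14 in REF, 7.61 ± 0.32 in C10, 7.48 ± 0.12 in CF and 7.57 ± 0.19 in I, and the log2 fold change of largest size against REF was that of CF (-0.27, SE 0.12, adjusted p 0.783). In C10 it was -0.15 (SE 0.11, adjusted p 0.534, 95 % interval -0.39 to 0.09), which leaves out a 2-fold difference in either direction.

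Vip, the relaxing peptide of inhibitory motor neurons, had means of 10.89 ± 0.38 in REF, 10.50 ± 0.68 in C10, 10.56 ± 0.41 in CF and 10.73 ± 0.27 in I. The lowest of all 16 signals was again that of C10 rat 1, 9.49, and the other 3 C10 rats (10.75 to 10.96) lay inside the REF range of 10.35 to 11.18. The log2 fold change in C10 was -0.48 (SE 0.24, adjusted p 0.325) with all rats and -0.16 (SE 0.21, adjusted p 0.788) without C10 rat 1; in CF it was -0.53 (SE 0.26, adjusted p 0.787). Nmu, the precursor of neuromedin U, which contracts gut muscle and acts on innate lymphoid cells, had means between 9.64 ± 0.23 (REF) and 9.88 ± 0.20 (CF). C10 rat 1 had the lowest signal, 9.09, and the other C10 rats (9.96 to 10.12) lay above all 4 REF rats (9.34 to 9.88). The log2 fold change of Nmu in C10 was 0.17 (SE 0.19, adjusted p 0.7) with all rats and 0.51 (SE 0.13, adjusted p 0.0788) without C10 rat 1, and that in CF was 0.19 (SE 0.20, adjusted p 0.925).

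Pdyn, the precursor of the dynorphins, opioid peptides of the kappa receptor, was close to the detection limit. It was well above background in 2 of 4 REF rats, 3 of 4 C10 rats, 1 of 4 CF rats and 3 of 4 I rats, and the lowest signal well above background was, depending on the rat, between 5.82 and 6.21. The C10 rats had 6.12, 6.93, 7.16 and 8.65, against 6.18, 6.18, 6.49 and 6.27 in the REF rats. C10 rats 2, 3 and 4 were thus above every rat of the other diets, whose highest signal was 6.65 (CF rat 4), while that of C10 rat 1 was not well above background. The log2 fold changes therefore rest in part on signals at the background, and their size is uncertain. Against REF the value was 0.82 (SE 0.31, adjusted p 0.202), against CF 0.99 (SE 0.31, adjusted p 0.188) and against I 0.88 (SE 0.34, adjusted p 0.31). Leaving out C10 rat 1 gave 1.30 against REF (adjusted p 0.0325), 1.32 against CF (adjusted p 0.0244) and 1.30 against I (adjusted p 0.0372), and Pdyn was called in all 3. Leaving out C10 rat 4, the highest, gave 0.43 against REF (adjusted p 0.176).

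Trpv1, the heat- and capsaicin-gated channel of sensory nerves that release substance P, ran the other way from Tac4. Its signal was 7.18, 6.77, 7.24 and 6.43 in the REF rats and 7.50, 7.54, 7.10 and 9.05 in the C10 rats. C10 rat 4 was the highest of the 16, and the remaining C10 rats overlapped with REF only through rat 3. The log2 fold change was 0.86 (SE 0.32, adjusted p 0.192; exact permutation p 0.0857), the second probe gave 0.72 (SE 0.31, adjusted p 0.254), and without C10 rat 4 the value was 0.49 (SE 0.19, adjusted p 0.215). CF rats had 7.58, 6.90, 7.47 and 7.89, a log2 fold change of 0.43 (SE 0.35, adjusted p 0.899), and I rats 7.16, 6.87, 7.18 and 6.79, a log2 fold change of 0.00 (SE 0.32, adjusted p 0.999).

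**Figure D2:**
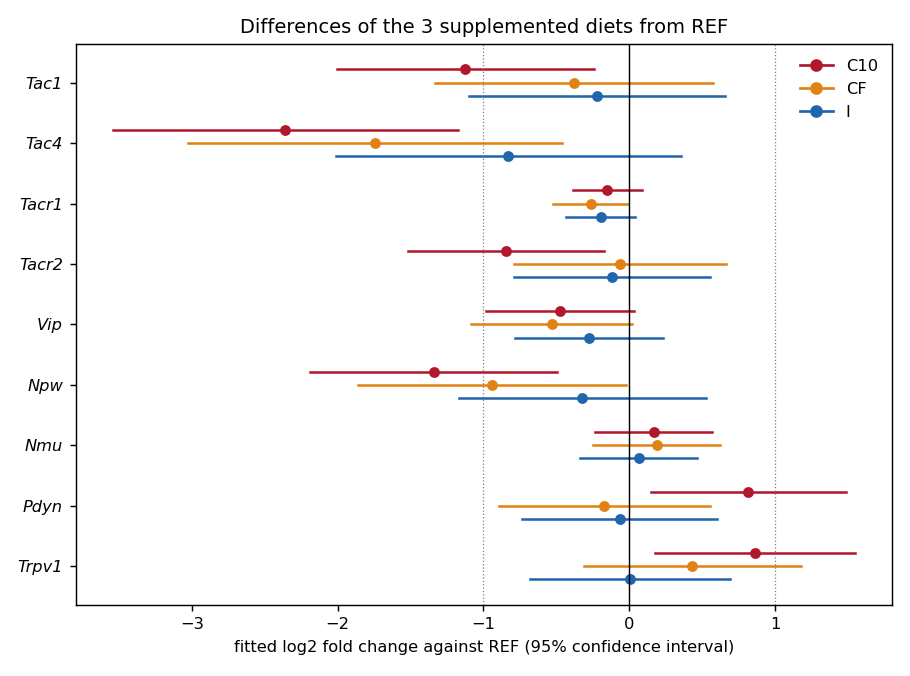
Fitted log2 fold change of each gene against REF in the C10, CF and I diets (points) with its 95 % confidence interval (lines). The solid line marks 0 and the dotted lines a 2-fold difference. Tac4 in C10 (-2.36) is the only interval that lies beyond the 2-fold line as a whole, and the intervals of all 9 genes in I include 0.

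Between the supplemented diets, 0 of 9 genes were called in C10 against CF (0.101 % of all genes), in C10 against I (0.166 %) and in CF against I (0 %). At an unadjusted p below 0.05 there were 2 genes in C10 against CF (Pdyn and Tacr2, beside 13.4 % of all genes), 5 in C10 against I (Tac4, Npw, Pdyn, Trpv1 and Tacr2, beside 12.2 %) and 0 in CF against I (2.82 %). The value of Tacr2 in C10 against CF, -0.78 (SE 0.31, adjusted p 0.292), was -0.43 without C10 rat 1, and that of Trpv1 in C10 against I, 0.86 (SE 0.35, adjusted p 0.336), was 0.38 without C10 rat 4. Npw in C10 against I was -1.02 (SE 0.43, adjusted p 0.355).

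Markers of the cells around these genes moved with some of the values. Marker scores, each the mean log2 signal of the listed genes, were computed for every rat. For smooth muscle (7 markers, among them Myh11, Des and Actg2) the score was 12.21 in C10 rat 1 and between 13.80 and 14.87 in the other 15 rats, and for enteric neurons (16 markers, among them Elavl4 and Prph) it was 7.03 in C10 rat 1 and between 7.77 and 8.17 in the others. C10 rat 1 thus had the lowest muscle and neuron scores as well as the lowest signals of Tac1, Tacr2, Vip and Nmu. Its B cell and T cell scores (9.39 and 8.78) were the highest of the C10 group. Both were higher still in CF rat 3 (9.71 and 9.08) and I rat 1 (9.58 and 9.08). Against REF, 7 of 7 muscle markers and 14 of 16 neuron markers had values below 0 in C10, and 0 of either list were called. With the muscle score as a further term of the model, chosen after seeing the data, the C10 values became -0.31 for Tac1 (SE 0.34), -0.17 for Tacr2 (SE 0.22) and -0.14 for Vip (SE 0.24). That of Pdyn became 1.36 (SE 0.29, adjusted p 0.0471) and was called. Within diets, however, the relation of Pdyn to the muscle score rested on C10 rats 1 and 4. It had r = 0.645 and rho = -0.103 with all rats, and r = -0.606 without those rats. The posterior Hox score (Hoxb13, Hoxd13, Hoxd12 and Hoxd10, genes whose expression marks the hind end of the gut) was 6.68 to 9.18 in REF, 8.93 to 10.51 in C10, 7.73 to 9.55 in CF and 7.91 to 9.01 in I. It was lowest in REF rat 4 and highest in C10 rat 4, the rats with the highest and the lowest Tac4, and 0 of its 4 genes were called in C10. With this score as a further term, also chosen after seeing the data, the C10 values were -1.28 for Tac4 (SE 0.38, adjusted p 0.23), -0.53 for Npw (SE 0.23, adjusted p 0.419) and 0.21 for Trpv1 (SE 0.20, adjusted p 0.769). The mast cell score was 7.92 to 8.71 in the C10 rats and 9.17 to 9.96 in all the others. Against REF, 9 of 9 mast cell markers were lower in C10 and 6 of them were called. Within diets the correlation of this score with Tac4 was weak (r = 0.24, rho = 0.33, permutation p 0.379 and 0.213, adjusted 0.504 and 0.384). The mast cell score ran against Tac1 (r = -0.78, rho = -0.61, adjusted permutation p 0.00596 and 0.0636). The same held for Nmu (r = -0.67, rho = -0.54, adjusted 0.0202 and 0.103) and Pdyn (r = -0.64, rho = -0.47, adjusted 0.0481 and 0.183). Without C10 rats 1 and 3 these values of r were -0.47, -0.50 and -0.63.

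Correlations across the 16 rats were taken after the means of diet and dye had been removed, with permutation p-values from 100000 resamples, whose smallest possible value is 1e-05. The shuffling treated the 16 centred values as exchangeable and took no account of the removed means or of shared arrays. These p-values, and the counts based on them, may therefore be too favourable. Of the 36 pairs of genes, 10 had an adjusted p below 0.05 for Pearson's r. Tac4 and Npw had r = 0.93 and rho = 0.91 (permutation p 1e-05 for both, adjusted 0.00036), and r = 0.86 without the 2 rats farthest from the median of Tac4 (CF rat 2 and REF rat 3). Both ran against Trpv1, with r = -0.69 and rho = -0.75 for Tac4 (permutation p 0.00356 and 0.00092, adjusted 0.0214 and 0.00828) and r = -0.71 and rho = -0.77 for Npw (permutation p 0.00198 and 0.00072, adjusted 0.0143 and 0.00828). Tac1 followed Nmu (r = 0.88, rho = 0.84, permutation p 2e-05 and 8e-05, adjusted 0.00036 and 0.00144; r = 0.73 without 2 rats). Tacr2 followed Vip (r = 0.82, rho = 0.67, permutation p 0.00022 and 0.00586, adjusted 0.00264 and 0.0301; r = 0.68 without 2 rats). For Tac1 and Vip, r = 0.75 and rho = 0.54 (permutation p 0.00132 and 0.0327, adjusted 0.0119 and 0.131), and r fell to 0.47 without C10 rat 1 and CF rat 4, so that this relation rested on those rats.

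Of the 81 correlations between the 9 genes and 9 marker scores, 27 had an adjusted p below 0.05 for Pearson's r. The posterior Hox score ran against Tac4 (r = -0.83, rho = -0.82, permutation p 0.00012 and 0.00014, adjusted 0.0015 and 0.00227) and Npw (r = -0.85, rho = -0.85, permutation p 3e-05 and 7e-05, adjusted 0.00081 and 0.00223) and with Trpv1 (r = 0.82, rho = 0.87, permutation p 0.00013 and 2e-05, adjusted 0.0015 and 0.00162). Without REF rat 4 and CF rat 2, these values of r were -0.76, -0.81 and 0.80. The enteroendocrine score (9 markers, among them Chga and Tph1) followed Tac4 (r = 0.86, rho = 0.85, permutation p 3e-05 and 9e-05, adjusted 0.00081 and 0.00223) and Npw (r = 0.84, rho = 0.81, permutation p 4e-05 and 0.00022, adjusted 0.00081 and 0.00297), with r = 0.73 and 0.70 without CF rat 2 and REF rat 3. In C10 against REF, 5 of its markers were above 0 and 4, Chga and Tph1 among them, below. The colonic epithelium score also followed Tac4 (r = 0.76, rho = 0.81, adjusted permutation p 0.00413 and 0.00347) and Npw (r = 0.74, rho = 0.73, adjusted 0.00621 and 0.0144). Without CF rat 3 and REF rat 3 these values of r were 0.60 and 0.57. This score ran against Trpv1 (r = -0.635, rho = -0.556, adjusted 0.028 and 0.0859). Tacr2 ran against the B cell score (r = -0.69, rho = -0.61, adjusted 0.0092 and 0.0668) and the T cell score (r = -0.70, rho = -0.63, adjusted 0.0092 and 0.0582). For Vip these were r = -0.67 and rho = -0.74 (adjusted 0.0184 and 0.0121), and r = -0.66 and rho = -0.72 (adjusted 0.0202 and 0.0161). The enteric neuron score followed Vip (r = 0.92, rho = 0.83, permutation p 1e-05 and 0.00011, adjusted 0.00081 and 0.00223), Tac1 (r = 0.89, rho = 0.77, permutation p 5e-05 and 0.00084, adjusted 0.00081 and 0.00756) and Tacr2 (r = 0.84, rho = 0.79, permutation p 0.00023 and 0.00047, adjusted 0.00207 and 0.00476). Without C10 rat 1 and REF rat 1 these values of r were 0.82, 0.71 and 0.63. With the smooth muscle score, Tacr2 had r = 0.85 and rho = 0.69 (permutation p 0.00016 and 0.00391, adjusted 0.00162 and 0.0226) and r = 0.62 without C10 rats 1 and 4, whereas the relations of Tac1 (r = 0.79, rho = 0.51, permutation p 0.00356 and 0.0466, adjusted 0.0166 and 0.13) and Vip (r = 0.71, rho = 0.53, permutation p 0.0037 and 0.0363, adjusted 0.0166 and 0.105) rested on those rats, with r = 0.36 and 0.37 without them.

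**Figure D3:**
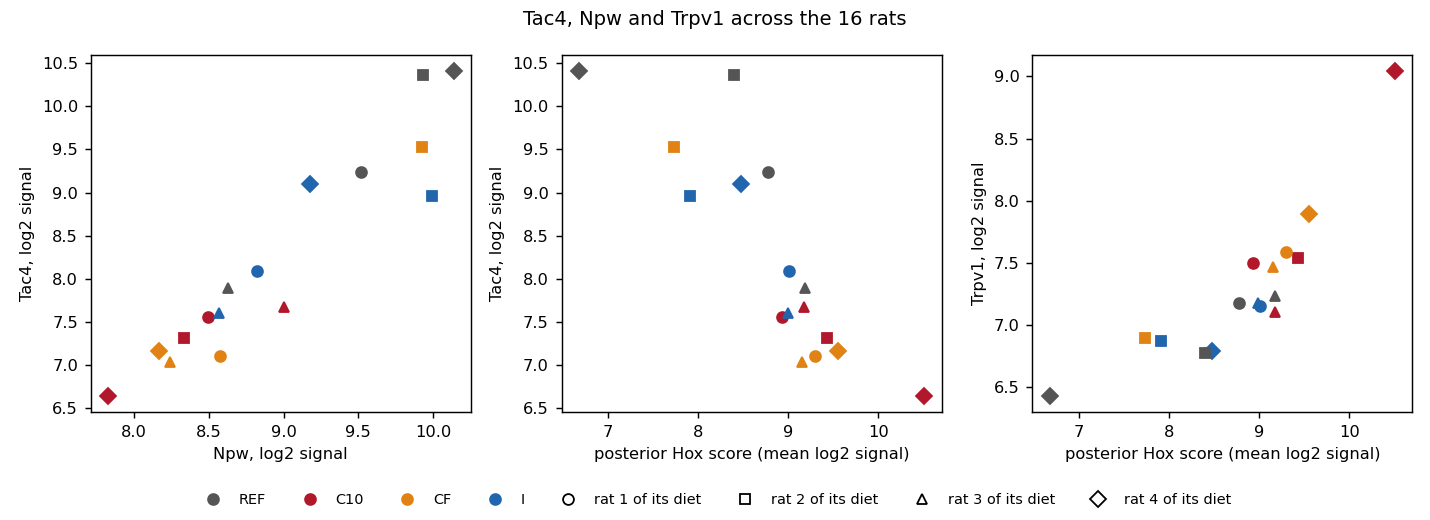
Log2 signal of Tac4 against Npw, and of Tac4 and Trpv1 against the posterior Hox score (mean log2 signal of 4 Hox genes), 1 point per rat, coloured by diet and shaped by rat number. The rats run from REF rat 4 (Tac4 10.41, score 6.68) to C10 rat 4 (Tac4 6.64, score 10.51), and CF rat 2 lies among the REF rats in the first panel.

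**Figure D4:**
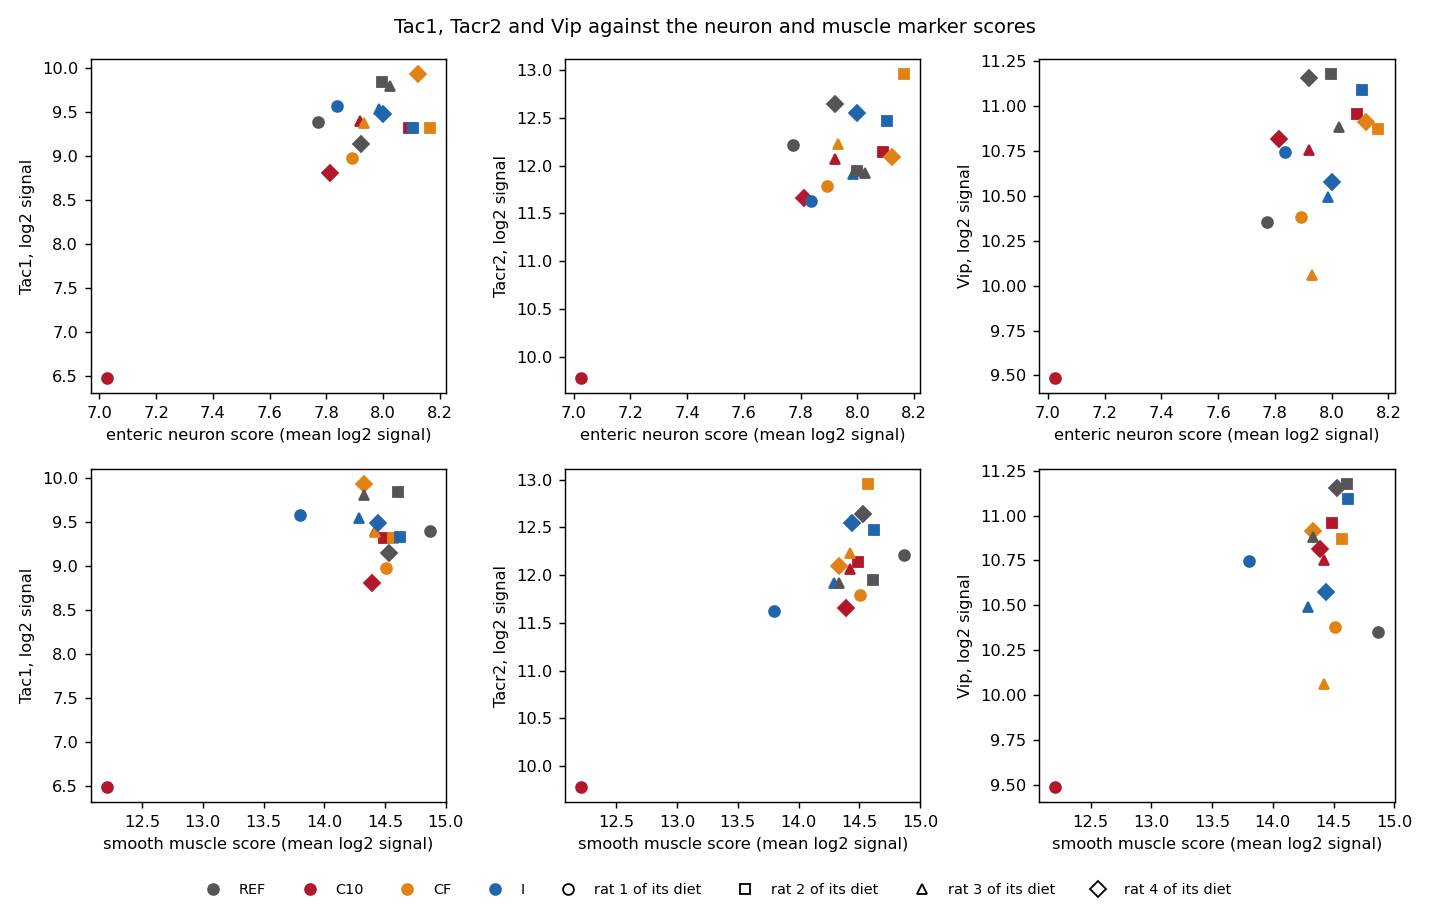
Log2 signal of Tac1, Tacr2 and Vip against the enteric neuron score (upper row) and the smooth muscle score (lower row), both as mean log2 signals, 1 point per rat. C10 rat 1 (neuron score 7.03, muscle score 12.21) stands apart from the other 15 rats in all 6 panels.

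The genes most like each of the 9 were taken as the 3 with the highest Pearson's r over the 16 rats, dye means removed and diets left in, among 11920 genes with a symbol; as they were picked for their likeness, r is a description. For Tac4 they were Npc1l1 (0.98), the intestinal cholesterol transporter, Bpifb2 (0.97) and the pepsinogen Pga5 (0.97). Their log2 fold changes in C10 were -1.08 (SE 0.28, adjusted p 0.0798), -2.07 (SE 0.57, adjusted p 0.0913) and -1.44 (SE 0.32, adjusted p 0.0504), none of them called. Npw was nearest to Slc18a1 (0.97), the vesicular monoamine transporter of endocrine cells, Tff1 (0.96), a secreted trefoil peptide, and Grhpr (0.96). For Trpv1 the nearest were Gsta2 (0.98), a glutathione transferase, Pm20d1 (0.98) and Hoxd10 (0.96), which is also part of the posterior Hox score. Tac1 was nearest to Grp (0.96), the gastrin-releasing peptide, which had 6.22 in C10 rat 1 and 9.23 to 10.06 in the other 15 rats, followed by Syngr3 (0.93) and Cbln2 (0.93). Vip was nearest to Scg2 (0.91) and Scg5 (0.91), which encode proteins of secretory granules, and Syt4 (0.89), and Tacr2 to Lims2 (0.97), Sparcl1 (0.97) and Slc24a3 (0.96). The values of r were lower for Pdyn (C13h1orf74, Scnn1g and Ntsr2, 0.91 to 0.90), Tacr1 (Pex5l, Atp2a3 and Pcyt1a, 0.89 to 0.85) and Nmu (Adarb1, Tes and Tenm2, 0.86 to 0.81).

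The rest of the pathway was read from 4 lists. Of 12 further neuropeptide ligands tested, 0 were called in C10 against REF and 1 passed the adjusted threshold below 2-fold; at any fold, 0.93 % of all genes passed it. That gene was Tac3, the precursor of neurokinin B, with signals of 11.84, 11.99, 11.87 and 11.82 in the REF rats and 10.699, 11.55, 11.03 and 11.33 in the C10 rats. All C10 rats lay below all REF rats, which held for 2.04 % of all genes. Tac3 fell by 0.80 on the log2 scale (SE 0.14, adjusted p 0.0196). The adjusted p of Tac3 was above 0.05 in 7 of 28 other settings, up to 0.19 with log-ratios within arrays, and among them without REF rat 1 (0.0501), REF rat 2 (0.117) or REF rat 4 (0.0572). With the smooth muscle score as a term, Tac3 had -0.625 (adjusted p 0.0699). The median of the ligands was -0.30, beside 0.01 over all genes, and the next smallest p was that of Penk, the enkephalin precursor (-0.46, SE 0.16, adjusted p 0.163).

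Of 24 neuropeptide receptors listed, 15 could be tested. The NPBW receptor Npbwr1, the kappa receptor Oprk1 and the neuromedin U receptor Nmur2 had probes but were not among them. Of the 15 tested, 0 were called and 1, the VIP receptor Vipr2, passed the adjusted threshold. It fell by 0.72 (SE 0.15, adjusted p 0.0397), from 10.14, 9.84, 9.92 and 10.52 in the REF rats to 9.18, 9.63, 9.37 and 9.32 in the C10 rats, which did not overlap. Non-overlapping groups with C10 lower were found for 2.04 % of all genes. The adjusted p of Vipr2 was above 0.05 in 19 of 28 other settings, up to 0.264. With the smooth muscle score as a term, Vipr2 had -0.598 (adjusted p 0.126). Ramp1, a subunit of the CGRP receptor, came next with -0.72 (SE 0.20, adjusted p 0.0898), and the median of the receptors was 0.01. Among 11 enzymes that make or break down neuropeptides, 1 was called, beside 0.196 % of all genes. This was Mme, neprilysin, which cleaves substance P and other peptides and rose by 1.41 in C10 (SE 0.28, adjusted p 0.034). Its signal was 7.74, 7.11, 7.75 and 6.97 in the REF rats and 8.84, 8.75, 8.08 and 9.11 in the C10 rats, which again did not overlap; with C10 higher, this held for 2.55 % of all genes. The call of Mme was lost in 9 of 28 other settings, among them without REF rat 2 (1.16, adjusted p 0.178), without C10 rat 2 (1.23, adjusted p 0.105) and with the posterior Hox score as a term (0.91, adjusted p 0.133). Dpp4, a peptidase that trims several gut peptides, had 1.02 (SE 0.25, adjusted p 0.0669), and the median of the enzymes was 0.05. Among 11 other TRP channels, 0 passed, with a median of -0.19, and Trpc1 (-0.31, SE 0.10, adjusted p 0.134) and Trpm3 (-0.20, SE 0.08, adjusted p 0.205) had the smallest p. In CF and in I, 0 genes of the 4 lists passed the adjusted threshold in limma, and at an unadjusted p below 0.05 there were 0 ligands, 1 receptor (Ramp1), 2 enzymes (Anpep and Cpe) and 2 channels (Trpv3 and Trpc1) in CF, beside 6.34 % of all genes, and 0 ligands, Calcrl, Anpep and Trpc1 in I, beside 5.72 %. In C10 the same limit was passed by 17.2 % of all genes and by 4 ligands (with Calcb and Grp beside Tac3 and Penk), 4 receptors (with Galr2 and Vipr1 beside Vipr2 and Ramp1), 3 enzymes (with Cpe beside Mme and Dpp4) and 3 channels (with Trpv3 beside Trpc1 and Trpm3). Of these, Anpep, Cpe, Trpv3, Calcrl, Calcb, Galr2 and Vipr1 were named after their values were seen.

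As a check of the tissue label, 8 of 9 listed markers of the colonic epithelium and 7 of 8 of smooth muscle passed the filter on dim probes, and each of the others had no matched probe. On each array 62976 spots were read, and between 68.6 % and 83.9 % of spots were well above background in a rat.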

How the data were processed

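RNA of the colon of 16 rats (4 per diet) was hybridised to 8 two-colour Agilent arrays. The authors deposited the output of Agilent Feature Extraction 10.7.3.1, per the labels, with median spot and background intensity in each dye, not normalized; its processed intensity served as an alternative. A normalized series table of 8 columns was not used here, because no column name fits 1 array.

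In R 4.3.3, limma 3.58.1 (with statmod 1.5.0) corrected the intensities by normexp (offset 50), then spatial loess (span 0.4), intensity loess (span 0.3) and Aquantile. The study's methods name these steps without offset and spans. Of 30367 probes, 22541 passed a filter of 4 or more rats well above background, and outlier spots were left out; 0 spots were saturated. The brightest probe stood for a gene. Symbols came from RefSeq (GRCr8) through the accession, for 17935 of 19109 probes with an mRNA accession. Channels were fitted with diet, dye and array as a block (correlation 0.4186), with Benjamini-Hochberg adjustment. The scripts were tested on simulated data. The 8 arrays and 16 rats limit the precision; each rat is a separate animal. The labels give each rat 1 array and 1 dye, while the methods describe a dye swap for each sample.

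The genes and lists were chosen with earlier results of these data known. Named are all 9 genes, genes of the 4 pathway lists past the adjusted threshold or with the 2 smallest p in C10, and the 3 genes most like each of the 9. Alternatives changed the offset, signals, loess, normalization between arrays, filter, probe rule, model and test, or left out each rat.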

Additional observations from a re-analysis of the deposited data

Results flagged for a closer look

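In 36 groups of 4 rats (9 genes in 4 diets), 3 had a highest or lowest rat whose gap to the next, divided by the range of the group, was above Dixon's 95 % critical value; chance gives about 1 in 20 groups. They were Tac4 in CF, where rat 2 was the highest (0.948), Vip in C10, where rat 1 was the lowest (0.862), and Nmu in C10, where rat 1 was again the lowest (0.843). CF rat 2 had 9.52 for Tac4 against 7.04 to 7.17 in the other CF rats, and its posterior Hox score, 7.73, was the lowest of the CF group. C10 rat 1 had 9.49 for Vip and 9.09 for Nmu, and the lowest smooth muscle and enteric neuron scores of all 16 rats (12.21 and 7.03). The part of these scores in the values was not tested. The fits with a score as a term cannot fully separate score from diet. The posterior Hox score itself had means of 8.26 ± 1.10 in REF and 9.51 ± 0.70 in C10, and the lowest muscle score was that of C10 rat 1.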

How the results depend on the processing

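The count of 0 genes called was kept in 160 of 171 recomputed counts over the 6 comparisons. CF against REF, I against REF and CF against I had 0 genes called on the whole array, so their counts had little room to move. In C10 against REF, 23 of 29 counts were kept, and the count ranged from 0 to 3. The count was 1 in C10 against REF without normalization between arrays (Tac4, -2.47, adjusted p 0.0379), and 1 in C10 against REF and in C10 against CF with the smooth muscle score as a term (Pdyn in both). Within diets the relation of Pdyn to that score rested on C10 rats 1 and 4. Rank product gave 3 in C10, 1 in CF and 1 in I, all against REF. Leaving out each rat in turn gave 0 to 2 genes in C10 against REF, 0 to 1 in C10 against CF, 0 to 1 in C10 against I and 0 in the other comparisons. Sign changes were found in 2 values: Tacr1 in C10 was 0.0709 without C10 rats 1 and 4, and Nmu in C10 was -0.16 with the posterior Hox score as a term. The cause was not tested. Settings that name both C10 rats, a score or the other probe were chosen after seeing the data. Without C10 rats 1 and 4, Tac4 was -2.25 (adjusted p 0.189), Npw -1.27 (0.301) and Pdyn 0.78 (0.0532), and Tac1 was -0.11 (0.903). Over all settings, C10 against REF ranged from -2.99 to -1.28 for Tac4 from -1.63 to -0.53 for Npw, from 0.42 to 1.73 for Pdyn and from 0.21 to 1.53 for Trpv1. Log-ratios within arrays gave -2.61 for Tac4 (adjusted p 0.264). This is the fit that uses only the pairs of rats that shared an array; replicate numbers, given in accession order, pair no rats. Signals not well above background were found for Pdyn, for the second probe of Tac1 in C10 rat 1 and for the second probe of Trpv1 in I rat 2.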
